A study of Mus musculus with 24 samples.

Results

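Mouse brown fat cells in primary culture were compared at day 7 and at day 4 after isolation, on 10 of the 24 arrays of the series. The members were chosen by label alone: 5 arrays titled as brown adipocytes cultured for 7 days, numbered 7, 8, 11, 12 and 22, and 5 titled as brown adipocytes cultured for 4 days, numbered 5, 6, 9, 10 and 19. Per the labels, the day 4 cells were not differentiated and the day 7 cells were differentiated, and all were grown in vitro from brown adipose tissue with no other treatment given. The other 14 arrays hold white adipocyte cultures (8 at day 4 and 6 at day 7). They serve to show where the brown comparison differs from the white one, and they enter the fit, the floor and the filter. The spread behind each brown p-value was thus estimated over all 24 arrays. Strain, sex and age of the mice are not given in the sources used here, and neither is the number of animals or cultures behind the arrays.

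Brown adipocytes burn fat to make heat. Fatty acids released from many small lipid droplets are oxidised in mitochondria, and the uncoupling protein Ucp1 lets protons re-enter the mitochondrial matrix without ATP being made. In culture, precursor cells first divide, then leave the cell cycle and fill with lipid under the control of the nuclear receptor Pparg and the C/EBP factors. Brown precursors share their origin with skeletal muscle, and muscle genes can be found in young brown cultures.

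Each array gives 1 signal (a linear brightness) per probe set of the Affymetrix Murine Genome U74Av2 design. Arrays of the same group correlated at 0.927 to 0.956 at day 4 and 0.925 to 0.964 at day 7 on the log2 scale, and the median signal of the brown arrays lay between 45.4 and 52.8. The ratio of 3′ to 5′ control signal, a measure of RNA integrity, was 0.884 ± 0.0825 at day 4 and 0.889 ± 0.0379 at day 7 for Gapdh (SD, n = 5 each), and 1.47 ± 0.137 and 1.61 ± 0.206 for beta-actin, with exact permutation p = 0.897 and 0.222. The array numbers fall into 3 runs that each hold both days: 5 to 8, 9 to 12, and 19 with 22. They are called number runs here; what an array number means is not given in the labels. Adipocyte genes were measured on all 10 arrays: Pparg had signals of 309 to 577, Cebpa of 2294 to 4175 and Fabp4 of 208 to 408 over both days.

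Of 8397 probe sets tested, 1012 (12.1%) differed between the days, 504 higher and 508 lower (6.05%) at day 7. Counted by gene, 815 of 6281 genes passed (13.0%), with 407 higher (6.48%) and 408 lower (6.50%). The counts given below for gene lists are to be read beside these shares of all genes. Throughout, a difference is the mean log2 signal at day 7 minus that at day 4, ± the standard error of the limma fit, and a gene passed when its p-value, adjusted over all 8397 probe sets, was under 0.05. The median difference over all genes was 0.017 on the log2 scale. The rises were the larger: 180 genes rose and 80 fell by at least 2-fold, and 29 rose and 2 fell by at least 4-fold. In 627 genes (9.98%) the signals of the 5 day 7 arrays lay wholly above or below those of the 5 day 4 arrays, and 469 of these also passed the test. The count of probe sets fell to 672 without day 7 array 8, and was 944 without arrays 19 and 22. Of the 1012 probe sets, 1012 kept their direction within the first number run, 1012 within the second and 965 within the third, which only describes them, since they were called on these same arrays.

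**Figure D1:**
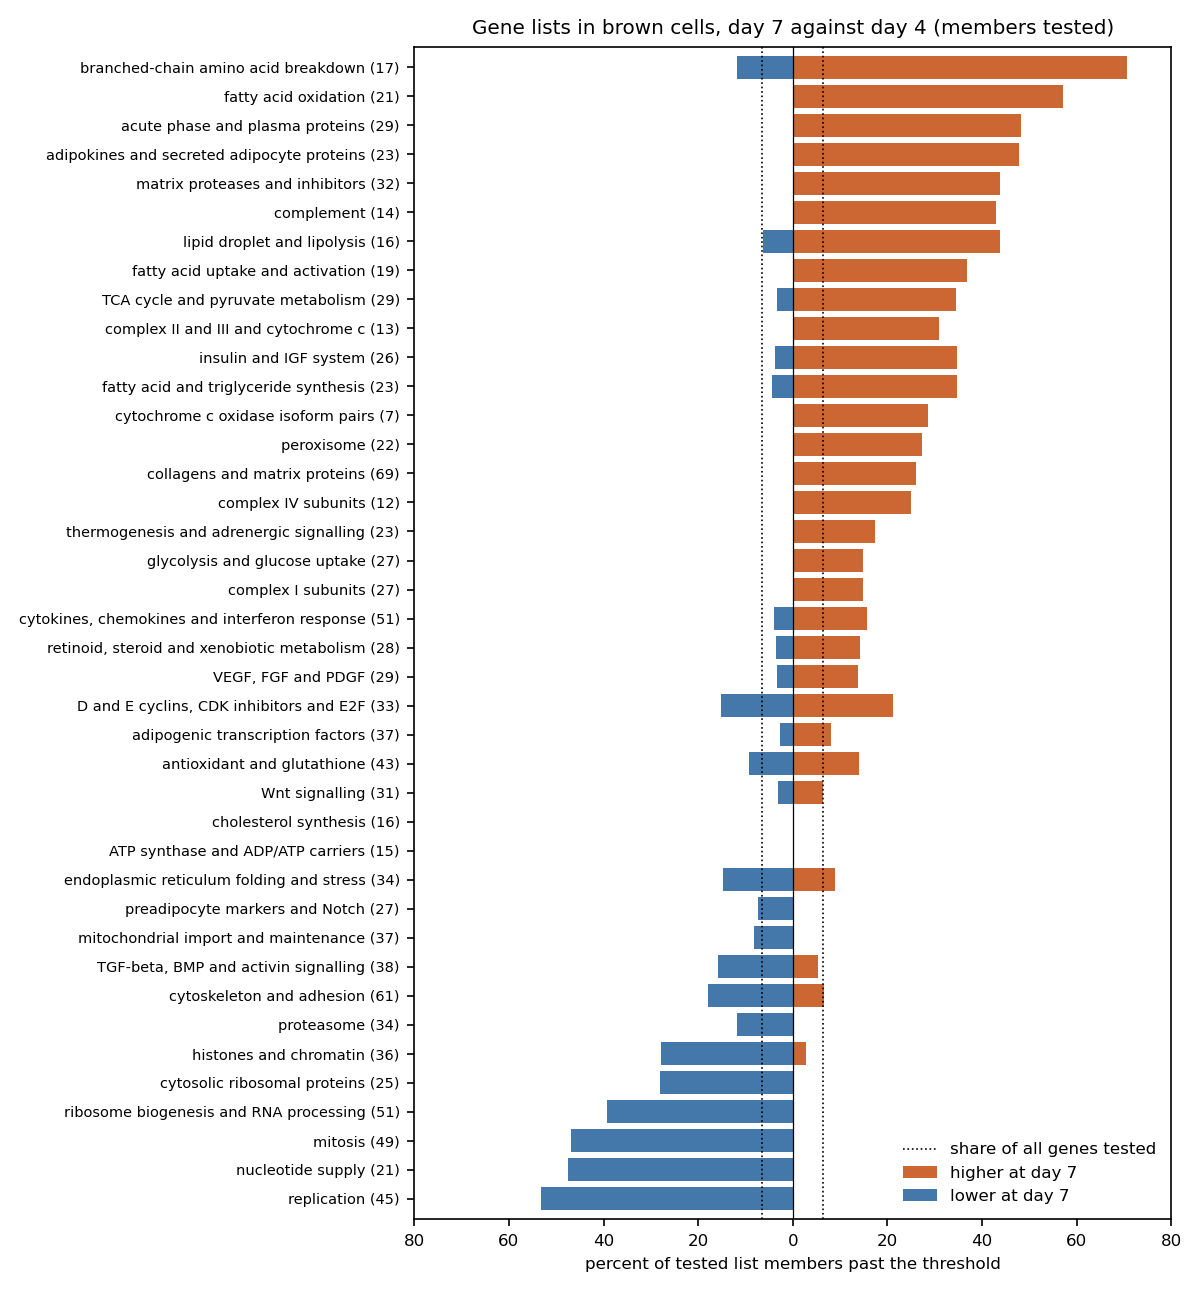
Percent of the tested members of each gene list that were higher (right, orange) or lower (left, blue) at day 7 in brown cells, with the number of members tested in brackets; dotted lines mark the shares of all genes tested (6.48% higher, 6.50% lower). Branched-chain amino acid breakdown reaches 70.6% higher at the top, and replication 53.3% lower at the bottom.

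Cox8b, Cox7a1, Cidea and Fabp3, genes known for high expression in brown fat, rose from day 4 levels that differed widely between number runs, while Ucp1 was too dim to be tested. The signal of Ucp1 was 42.6, 23, 4.71, 5.41 and 19.4 on day 4 arrays 5, 6, 9, 10 and 19, and 113, 125, 17.4, 19 and 53.1 on day 7 arrays 7, 8, 11, 12 and 22. It was higher at day 7 within each run, by 3.78-fold, 2.22-fold and 2.74-fold (the second against the floor of 8.21, the lowest signal counted), but arrays 11 and 12 lay below day 4 arrays 5 and 6. Ucp1 cleared the filter on low signals on 4 arrays only and so was not among the probe sets tested. In a fit without the filter its difference was 1.52 ± 0.52 with an adjusted p of 0.0905. Its second probe set stayed between 9.32 and 30.0 on the brown arrays. In cultures measured whole, a larger number of cells with a transcript and more of it per cell cannot be told apart.

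Cidea, a lipid droplet protein of brown fat, had signals of 378, 182, 27.3, 32.6 and 226 at day 4 and 1083, 1754, 160, 472 and 268 at day 7, a difference of 2.29 ± 0.63 (adjusted p = 0.0165). The days overlapped, since array 11 at day 7 lay below arrays 5, 6 and 19 at day 4. The rise was 5.26-fold and 9.19-fold in the first and second runs and 1.19-fold in the third. Cox8b, the muscle and brown fat form of a cytochrome c oxidase subunit, had signals of 433, 589, 106, 108 and 388 at day 4 and 2567, 4117, 590, 1711 and 1137 at day 7 (2.68 ± 0.44, adjusted p = 2.92e-04), the lowest day 7 array (590) standing just above the highest day 4 array (589). Its second probe set rose by 2.23 ± 0.42. Cox7a1, the corresponding form of another oxidase subunit, had signals of 194, 303, 25.1, 80.4 and 144 at day 4 and 888, 972, 238, 603 and 875 at day 7 (2.53 ± 0.55, adjusted p = 0.0029). Array 11 at day 7 lay below array 6 at day 4. The widely expressed partner Cox7a2 differed by 0.33 ± 0.18 and did not pass (adjusted p = 0.249). Fabp3, the heart-type fatty acid binding protein, rose by 1.85 ± 0.46 (adjusted p = 0.00865). These 4 genes were the only ones of the 23 tested thermogenesis and adrenergic genes to pass, and none of the 23 fell. Ucp3 differed by 0.47 ± 0.39 (adjusted p = 0.503). Dio2 and Ppargc1a were on the array but below the filter, with signals of 4.25 to 22.1 and 2.03 to 11.5. The call of Cidea ended without array 7, 8, 9 or 10, with adjusted p up to 0.0719, and in a fit of the brown arrays alone (0.0904).

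**Figure D2:**
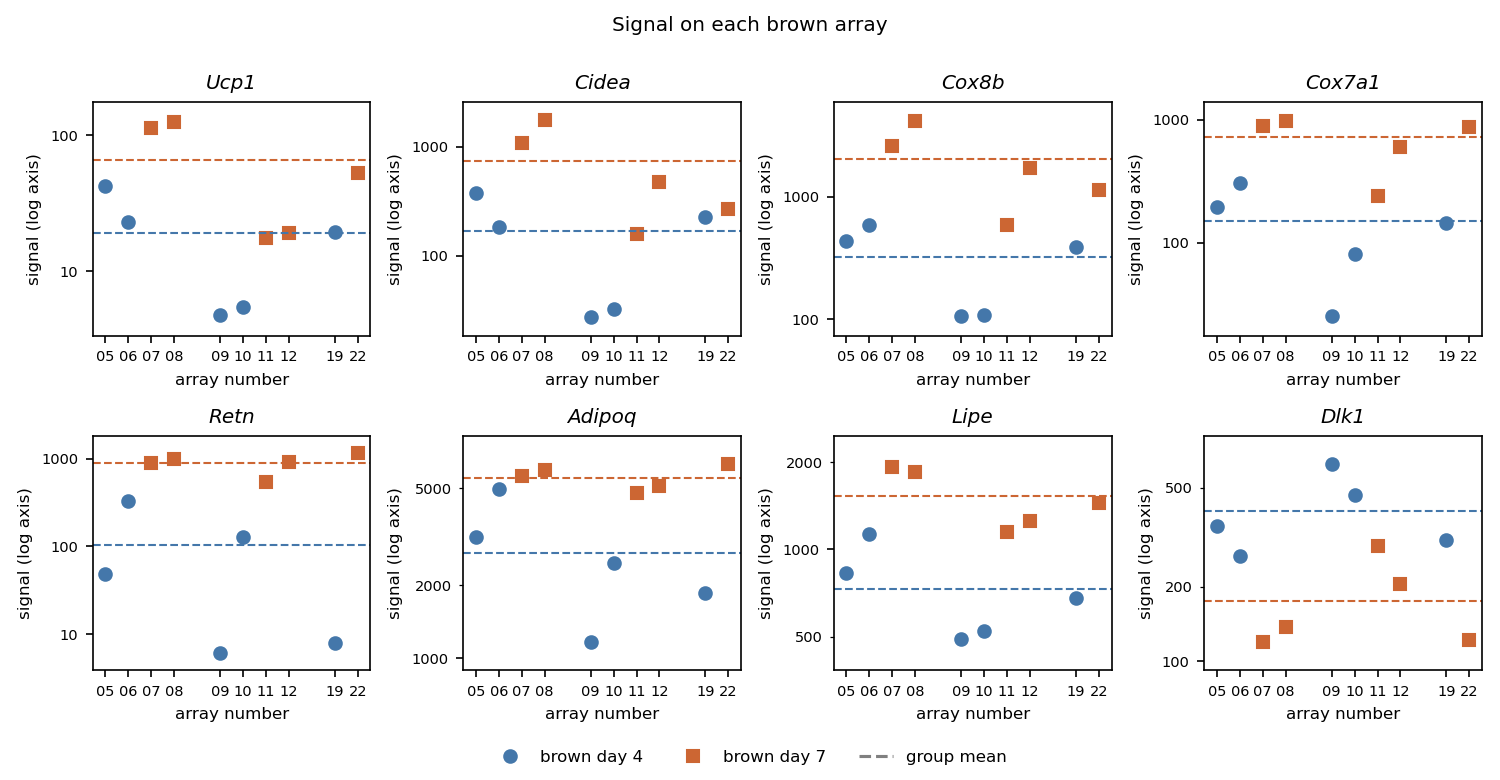
Signal of 8 genes on each brown array (log axis), in the order of the array numbers in the labels, with day 4 as blue circles, day 7 as orange squares and group means as dashed lines. Within every number run the first 7 genes are higher at day 7 and Dlk1 is lower, while the level itself shifts between runs, most of all for Ucp1, Cidea and Cox8b on arrays 9 to 12.

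Of 37 tested transcription factors of fat cell formation, 3 rose and 1 fell. These shares, 8.11% and 2.7%, stand beside 6.48% and 6.50% of all genes, and the median difference was 0.15. Cebpd, which acts early in the programme, fell from signals of 940, 1052, 1125, 1418 and 1484 to 593, 436, 587, 612 and 860 (−0.97 ± 0.22, adjusted p = 0.00452), with no overlap. Nr1d2, a clock repressor, rose by 1.03 ± 0.31, Ddit3, a stress-induced C/EBP relative, by 0.81 ± 0.21, and Klf9, a zinc finger factor, by 0.69 ± 0.21. Pparg (0.37 ± 0.23), Cebpa (−0.31 ± 0.23), Cebpb (0.08 ± 0.15), Ppara (−0.27 ± 0.42) and the lipid synthesis regulator Srebf1 (0.57 ± 0.23) did not pass. With the number runs as a block Pparg and Srebf1 did (adjusted p = 0.0491 and 0.00403), and Srebf1 also with array weights (0.0275). Among 27 preadipocyte and Notch genes, 2 fell (7.41%, near the 6.50% of all genes) and none rose. Dlk1, which holds preadipocytes undifferentiated, went from 352, 265, 622, 467 and 309 to 120, 137, 292, 204 and 122 (−1.23 ± 0.24, adjusted p = 0.00139). The days overlapped only through array 11 at day 7, which lay above array 6 at day 4. Hoxa5, a positional homeobox gene, fell by 0.73 ± 0.21 on the log2 scale. The neck and brown fat factors Zic1 (−0.41 ± 0.24) and Lhx8 (−0.14 ± 0.34) did not pass. The calls of Nr1d2 (5 arrays, adjusted p up to 0.0902), Klf9 (5 arrays, up to 0.0809), Hoxa5 (4 arrays, up to 0.0736) and Ddit3 (array 8, 0.0508) ended when 1 array was left out. Klf9 was also lower at day 7 in the third run, and its second probe set rose by 1.55 ± 0.38.

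Several genes that store and release fat rose. Of 16 tested genes of lipid droplets and lipolysis, 7 rose (43.8%) and 1 fell (6.25%), with a median difference of 0.71. The shares of all genes were 6.48% and 6.50%. Lipe, hormone-sensitive lipase, had signals of 831, 1131, 493, 523 and 680 at day 4 and 1917, 1850, 1147, 1256 and 1450 at day 7 (1.10 ± 0.30, adjusted p = 0.0169). Pnpla2, the triglyceride lipase that acts before it, rose by 1.29 ± 0.35, Ces1d, a carboxylesterase, by 2.94 ± 0.57, Adig, adipogenin, by 2.28 ± 0.38 and the droplet protein Cidec by 1.95 ± 0.56. Signals of Adig ran from 32.1 to 252 at day 4 and from 255 to 675 at day 7. Cavin1, a caveolar coat protein, fell by 0.42 ± 0.12. The probe set of Ces1d carries the suffix for related sequences and may also bind other carboxylesterases. Its day 4 signals were 33.2, 43.7, 3.51, 7.62 and 7.00, of which 3 lie under the floor. Calls ended without array 7, 8, 9 or 10 for Lipe (adjusted p up to 0.0579), without 9 for Pnpla2 (0.0579), without 8 or 12 for Cavin1 (up to 0.0713) and without any of 6 arrays for Cidec (up to 0.0732). Cidec also lost it with the floor raised to the 40th percentile (0.98, adjusted p = 0.178), called the higher floor from here on.

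Of 19 fat uptake genes 7 rose and none fell, and of 23 fat synthesis genes 8 rose and 1 fell. Thrsp, a regulator of lipid synthesis, had signals of 277, 304, 67.0, 73.4 and 242 at day 4 and 2196, 2928, 776, 1664 and 1680 at day 7, a 10.7-fold rise (3.42 ± 0.48, adjusted p = 7.82e-05). Fasn, fatty acid synthase, was even at day 4 (671 to 794) and spread at day 7, at 2404 and 2586 in the first run, 888 and 1416 in the second and 1684 in the third (1.18 ± 0.25, adjusted p = 0.00257). Gpd1, which makes the glycerol backbone, rose by 1.88 ± 0.42, Lpin1, a phosphatidate phosphatase, by 1.59 ± 0.26 and Scd1, which desaturates fatty acids, by 0.93 ± 0.22. Elovl1, an elongase of very long chains, fell by 0.72 ± 0.22. Among uptake and transport genes, Slc27a1, a fatty acid transporter, rose by 1.56 ± 0.44 and the apolipoproteins Apod, Apoc1 and Clu by 2.03 ± 0.37, 1.86 ± 0.38 and 1.07 ± 0.21. Lpl, the lipase that frees fatty acids from lipoproteins (0.45 ± 0.17, adjusted p = 0.0843), and Fabp4, the main binding protein (0.25 ± 0.20, adjusted p = 0.484), did not pass. Lpl did so without array 22 (0.0177), with array weights (0.0066) and with the block (0.0206). None of 16 tested cholesterol synthesis genes passed in either direction, and their median was −0.12. Slc27a1 lost its call without array 7, 8, 9 or 10 (adjusted p up to 0.0669), on brown arrays alone (0.0556) and with the higher floor (0.65, adjusted p = 0.107), and Elovl1 without any of 7 arrays (up to 0.0733).

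Breakdown of branched-chain amino acids and of fatty acids had the largest shares of genes that rose among the lists counted. Both lists name Acad8, Echs1, Hadha and Hsd17b10, so their counts can overlap. Of 17 tested genes of valine, leucine and isoleucine breakdown, 12 rose and 2 fell (70.6% and 11.8%), with a median difference of 0.81. The steps that rose span the pathway. Bckdha (0.96 ± 0.26), Bckdhb (0.70 ± 0.21) and Dbt (1.45 ± 0.43) are subunits of the branched-chain keto acid dehydrogenase. Hibch (1.59 ± 0.37) and Hibadh (0.73 ± 0.18) act on valine, Mccc1 (1.13 ± 0.25) on leucine, and Pccb (0.81 ± 0.24) and Mmut (1.13 ± 0.28) carry propionyl-CoA to succinyl-CoA. Hibch had signals of 38.5, 38.7, 29.1, 20.2 and 10.8 at day 4 and 81.2, 69.5, 57.2, 66.5 and 110 at day 7. Mccc1 had 77.8, 78.5, 71.9, 82.0 and 47.6 at day 4 and 186, 196, 113, 148 and 143 at day 7. In both genes the days did not overlap. The 2 genes that fell were Bcat1, the cytosolic transaminase (396, 387, 590, 557 and 575 against 209, 192, 240, 219 and 320; −1.08 ± 0.16, adjusted p = 1.10e-04), and Bckdk, the kinase that switches the dehydrogenase off (−0.40 ± 0.12, adjusted p = 0.0350). Bckdhb, Hibadh and Pccb lie outside the rule for naming genes and were chosen after their values were seen. When 1 array was left out, the calls of Bckdk (6 arrays, adjusted p up to 0.0983), Dbt (5 arrays, 0.0970), Bckdhb (4 arrays, 0.0856), Pccb (4 arrays, 0.0913) and Bckdha (3 arrays, 0.0643) ended, and those of Hibch, Mccc1, Mmut, Hibadh and Bcat1 held. Hibch lost its call in a fit with no floor (adjusted p = 0.0703).

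In fatty acid oxidation, 12 of 21 tested genes rose (57.1%) and none fell, with a median of 0.68. Acadm, the medium-chain acyl-CoA dehydrogenase, had signals of 570, 677, 275, 276 and 177 at day 4 and 1550, 1560, 761, 988 and 1093 at day 7 (1.72 ± 0.31, adjusted p = 6.67e-04), with no overlap. Acadl, the long-chain enzyme, rose by 1.05 ± 0.33, Hadhb, a subunit of the trifunctional protein, by 1.18 ± 0.20, and Etfdh and Etfa, which pass electrons to the respiratory chain, by 1.26 ± 0.29 and 1.04 ± 0.21. Of 22 peroxisomal genes, 6 rose (27.3%, against 6.48% of all genes). Among them were Phyh (1.35 ± 0.24), Ephx2 (1.34 ± 0.24), catalase Cat (1.02 ± 0.19), Scp2 (0.89 ± 0.23) and Hsd17b4 (0.73 ± 0.16). A second probe set of Cat differed by 0.11 ± 0.17 and did not pass. Of 29 genes of the tricarboxylic acid cycle and pyruvate metabolism, 10 rose and 1 fell. Sdha, the flavoprotein of succinate dehydrogenase, rose by 1.06 ± 0.26, Sucla2 of succinyl-CoA ligase by 1.08 ± 0.24, Pdhb of pyruvate dehydrogenase by 0.96 ± 0.21 and lactate dehydrogenase Ldhb by 1.05 ± 0.23. The kinases that inhibit pyruvate dehydrogenase moved in opposite directions: Pdk4 rose by 1.51 ± 0.33 and Pdk3 fell by 0.58 ± 0.17. Scp2 lost its call on brown arrays alone (adjusted p = 0.0635) and without arrays 19 and 22 (0.0736). Without 1 array, calls ended for Acadl (6 arrays, adjusted p up to 0.0982) and Pdk3 (5 arrays, up to 0.0980).

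**Figure D3:**
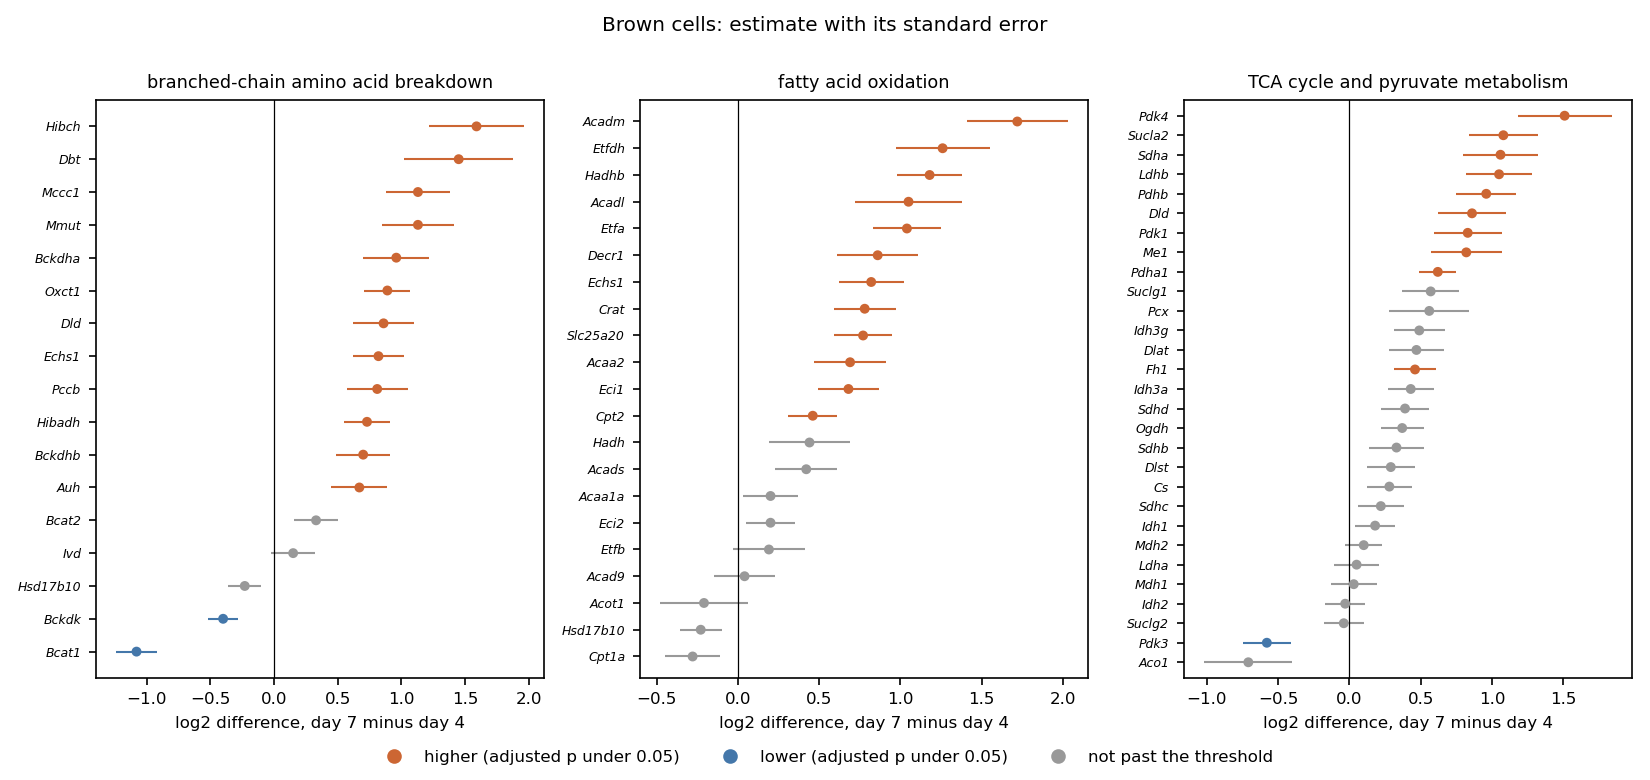
Log2 difference, day 7 minus day 4, for every tested gene of 3 lists, with bars for the standard error of the fit; orange points passed as higher, blue as lower, grey did not pass. Hibch (1.59) and Acadm (1.72) lead their lists, and Bcat1 (−1.08) and Pdk3 (−0.58) lie on the other side of 0.

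Some subunits of the respiratory chain rose. Of 27 tested complex I subunits 4 rose, of 13 genes of complexes II and III and cytochrome c 4 rose, and of 12 complex IV genes 3 rose, with medians of 0.28, 0.47 and 0.36. None of 15 ATP synthase and ADP/ATP carrier genes passed, with a median of 0.06. The difference between these lists was not tested. Ndufa6 (0.88 ± 0.21) and Ndufs1 (0.68 ± 0.21) of complex I, Uqcrc2 (1.05 ± 0.24) and Uqcrb (0.93 ± 0.26) of complex III and Cox7b (1.0 ± 0.30) of complex IV were among those that rose. The other complex IV genes that rose were Cox8b and Cox7a1, already counted among the thermogenesis genes above. Uqcrc2 had signals of 960, 1220, 707, 488 and 580 at day 4 and 1680, 2078, 1341, 1342 and 1416 at day 7, without overlap. Of 37 tested genes of mitochondrial import and maintenance, 0 were higher and 3 lower (8.11%, near the 6.50% of all genes). The 3 were Tomm40 (−0.61 ± 0.15) and Timm17b (−0.59 ± 0.19), parts of the import channels, and the ribosomal gene Mrps12 (−0.72 ± 0.22). Calls that ended without 1 array were those of Ndufs1 (6 arrays, adjusted p up to 0.125), Timm17b (6 arrays, 0.133), Mrps12 (8 arrays, 0.0934), Cox7b (5 arrays, 0.0995) and Uqcrb (2 arrays, 0.0780).

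Of 27 glycolysis and glucose uptake genes, 4 rose (14.8%) and none fell: the glycogen branching enzyme Gbe1 (2.0 ± 0.35), Ldhb, Eno2 (0.62 ± 0.18) and Ugp2 (0.59 ± 0.19). Slc2a4, the insulin-responsive glucose transporter, had signals of 93.2, 119, 62.9, 47.4 and 59.0 at day 4 and 240, 297, 125, 173 and 118 at day 7 but did not pass (1.31 ± 0.48, adjusted p = 0.0747). Slc2a4 did pass on brown arrays alone (0.0174), with the higher floor (0.0148), with array weights (0.00667) and with the block (2.98e-05). In the insulin and IGF list, 9 of 26 genes rose (34.6%) and 1 fell, with a median of 0.48. Igf1, insulin-like growth factor 1, had signals of 61.4, 146, 6.71, 23.9 and 64.9 at day 4 and 325, 237, 167, 236 and 606 at day 7 (2.79 ± 0.47, adjusted p = 3.34e-04), while its second probe set differed by only 0.29 ± 0.12 (adjusted p = 0.134). Ghr, the growth hormone receptor, rose by 1.95 ± 0.30, and the carriers Igfbp3 and Igfals by 2.05 ± 0.33 and 1.73 ± 0.38, the latter's call ending with the higher floor (0.81, adjusted p = 0.0998). The kinase subunit Pik3ca rose by 0.97 ± 0.28 (0.17 ± 0.39 on a second probe set), and the feedback inhibitor Socs1 fell by 0.81 ± 0.22. Igf2 differed by −0.10 ± 0.22 and did not pass. Without 1 array, calls ended for Ugp2 (9 arrays, adjusted p up to 0.108), Eno2 (4 arrays, 0.0757), Pik3ca (4 arrays, 0.0668) and Socs1 (3 arrays, 0.0515).

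Of 23 tested adipokines and secreted fat cell proteins, 11 rose and none fell. Retn, the hormone resistin, had signals of 48.8, 330, 6.09, 128 and 7.91 at day 4 and 889, 997, 536, 926 and 1166 at day 7 (4.36 ± 0.73, adjusted p = 3.34e-04). The day 7 arrays were close to each other, and the day 4 arrays were scattered, 2 of them under the floor. Adipoq, adiponectin, was already high at day 4 (3161, 4959, 1169, 2476 and 1852) and reached 5604, 5942, 4772, 5094 and 6306 at day 7 (1.19 ± 0.32, adjusted p = 0.0145), so that array 6 of day 4 overlapped the day 7 range. Its call ended without array 9 (adjusted p = 0.0636) and without arrays 19 and 22 (0.0704). Agt, angiotensinogen, rose by 1.60 ± 0.32 and Pltp, phospholipid transfer protein, by 1.49 ± 0.25. Lep, leptin, had signals of 165 to 352 at day 4 and 183 to 392 at day 7 (0.21 ± 0.26, adjusted p = 0.680).

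Acute phase and plasma proteins, of which 29 of the 60 listed were tested, rose in 14 cases and fell in none, with a median of 0.98. Ahsg, the plasma protein fetuin-A, lay under the floor on all 5 day 4 arrays (4.84 to 7.37) and at 69.3, 62.3, 54.6, 72.6 and 40.3 on the day 7 arrays, at least 7.13-fold higher (adjusted p = 3.21e-09). With the higher floor the difference of Ahsg was 1.02 (adjusted p = 6.76e-04). Serpina3n, a protease inhibitor, had signals of 355, 842, 247, 873 and 384 at day 4 and 1954, 1805, 2118, 2360 and 1819 at day 7 (2.07 ± 0.26, adjusted p = 1.74e-05). Saa3, serum amyloid A3, rose from 612 to 3059 at day 4 to 3764 to 8646 at day 7 (1.89 ± 0.27). Orm1, orosomucoid, rose by 2.49 ± 0.58, the glycoprotein Lrg1 by 2.32 ± 0.45, kininogen Kng1 by 1.53 ± 0.17 and the complement and kinin inhibitor Serping1 by 1.33 ± 0.17. Of 14 complement genes, 6 rose and none fell. Cfi, complement factor I, was under the floor on all day 4 arrays and at least 4.71-fold higher at day 7 (25.3 to 53.8; adjusted p = 0.00696). With the higher floor Cfi differed by 0.46 and did not pass (adjusted p = 0.489). Gm4788, a gene related to factor H whose probe set may bind that family, rose by 2.61 ± 0.40, C2 by 1.56 ± 0.30 and the membrane inhibitor Cd59a by 0.60 ± 0.17. Cd59a lost its call without array 8, 10 or 19 (adjusted p up to 0.0797). The summed signal of 23 macrophage markers was 728 to 871 at day 4 and 848 to 1227 at day 7 (exact permutation p = 0.0159, adjusted over 10 marker lists 0.0529), with Aif1, Fcer1g, Fcgr2b, Itgam and Marco at the floor on every brown array. Its part in these rises was not tested.

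Of 69 tested collagens and matrix proteins 18 rose (26.1%) and 51 did not pass, and of 32 matrix proteases and inhibitors 14 rose (43.8%) and 18 did not pass. No gene of either list fell. Thbs2, thrombospondin 2, had signals of 75.4, 43.3, 105, 74.8 and 107 at day 4 and 358, 397, 371, 599 and 187 at day 7 (2.21 ± 0.32, adjusted p = 1.10e-04). Ccn3, a matricellular growth regulator, rose by 2.09 ± 0.41, the microfibril protein Mfap2 by 1.61 ± 0.25, lumican Lum by 1.54 ± 0.34 and Sparcl1 by 1.51 ± 0.34. The fibril collagens Col1a1 and Col3a1, chosen after their values were seen, rose by 1.23 ± 0.24 and 1.04 ± 0.15, and their other probe sets by 1.53 ± 0.23 and by 1.58 ± 0.29 and 0.81 ± 0.21. Mmp3, stromelysin 1, had signals of 142, 127, 117, 50.7 and 41.5 at day 4 and 662, 951, 425, 666 and 1146 at day 7, an 8.57-fold rise (3.10 ± 0.48, adjusted p = 1.86e-04). Mmp11, another stromelysin, rose by 1.51 ± 0.25, the lysosomal protease Ctsh by 1.46 ± 0.19, the fibroblast protease Fap by 1.44 ± 0.27 and the metalloprotease inhibitor Timp3 by 1.19 ± 0.36, whose call ended without any of 5 arrays (adjusted p up to 0.0863). The summed signal of 15 smooth muscle and pericyte markers was 3945 to 5067 at day 4 and 5010 to 7290 at day 7 (exact permutation p = 0.0159, adjusted 0.0529), with none of them at the floor on all brown arrays. Its part in the matrix result was not tested.

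Many genes of cell division fell. Of 45 tested replication genes 24 fell (53.3%), of 49 mitosis genes 23 fell (46.9%) and of 21 nucleotide supply genes 10 fell (47.6%). None of the 3 lists had a gene that rose, and their medians were −0.84, −0.83 and −0.52. Top2a stands in both of the first 2 lists and did not pass. Cdc20, an activator of the anaphase-promoting complex, had signals of 1253, 983, 1506, 1485 and 1741 at day 4 and 477, 312, 579, 274 and 672 at day 7 (−1.65 ± 0.30, adjusted p = 6.38e-04). Cdk1, the kinase that drives entry into mitosis, had 977, 845, 1294, 1200 and 780 at day 4 and 470, 320, 476, 366 and 564 at day 7 (−1.22 ± 0.25, adjusted p = 0.0017). In both genes the days did not overlap. Mcm7, a subunit of the replicative helicase, had 630, 539, 533, 701 and 707 against 322, 226, 342, 231 and 324 (−1.12 ± 0.23, adjusted p = 0.00172). Cdc6, which loads that helicase, had 195, 157, 215, 140 and 188 against 84.9, 50.8, 119, 77.7 and 80.8 (−1.15 ± 0.22, adjusted p = 0.00103).

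The promoters of these 4 genes, which were chosen for display after their values were seen (Cdk1, Mcm7 and Cdc6 lie outside the naming rule), show the motifs known from cell cycle genes. Mitotic genes are known for a cell cycle homology region (CHR, TTTGAA) near CCAAT boxes, and replication genes for E2F sites. Each line gives the 180 bases before the transcription start, 5′ to 3′ on the coding strand, from RefSeq (GRCm38.p6), with motifs on either strand in capitals. For a gene with more than 1 start site, the site with the most kinds of motif was taken. Cdc20 is at chr4:118437344-118437523 (minus strand), Cdk1 at chr10:69352913-69353092 (minus), Mcm7 at chr5:138171884-138172063 (minus, 1 of 2 start sites in the table) and Cdc6 at chr11:98907971-98908150 (plus).
Cdc20: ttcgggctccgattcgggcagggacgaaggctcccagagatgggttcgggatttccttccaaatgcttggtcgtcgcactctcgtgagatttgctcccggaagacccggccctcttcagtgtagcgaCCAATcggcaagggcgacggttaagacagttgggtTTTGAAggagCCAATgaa
Cdk1: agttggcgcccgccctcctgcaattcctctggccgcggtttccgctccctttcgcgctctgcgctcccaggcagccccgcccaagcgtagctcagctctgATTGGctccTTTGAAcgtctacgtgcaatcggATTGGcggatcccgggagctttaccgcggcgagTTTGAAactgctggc
Mcm7: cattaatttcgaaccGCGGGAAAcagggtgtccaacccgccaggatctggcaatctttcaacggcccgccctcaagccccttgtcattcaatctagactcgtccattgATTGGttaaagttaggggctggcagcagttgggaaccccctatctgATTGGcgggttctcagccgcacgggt
Cdc6: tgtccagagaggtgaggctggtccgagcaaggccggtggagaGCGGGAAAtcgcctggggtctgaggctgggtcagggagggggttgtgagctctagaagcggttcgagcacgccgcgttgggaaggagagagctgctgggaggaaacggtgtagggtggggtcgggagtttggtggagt

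In Cdc20 the CHR starts 18 bases before the transcription start, with CCAAT boxes starting 53 and 8 bases before it. Cdk1 has CHR motifs starting 71 and 15 bases and reversed CCAAT boxes (ATTGG) starting 80 and 48 bases before the start. Mcm7 and Cdc6 each have an E2F motif in reverse (GCGGGAAA), starting 165 and 138 bases before it. Mcm7 also has reversed CCAAT boxes, starting 72 and 26 bases before the start. Motifs were counted over whole windows of 250 bases before to 50 after the start, on both strands, and the motif sets do not overlap. A gene was counted when any of its windows held the motif. Of the 41 mitosis genes with a window, 65.9% held TTTGAA, 75.6% held CCAAT and 61% held both, against 14.6%, 42.9% and 6.14% of the 5034 tested genes with a window. Of 41 replication genes, 29.3% held an E2F motif (TTTGGCGC or TTTCCCGC), against 3.71% of tested genes and 2.44% of mitosis genes. The E2F share was 0% of 21 nucleotide supply genes and 13.6% of 44 genes of ribosome biogenesis and RNA processing. In those lists, too, genes fell and none rose. CCAAT alone did not set the mitosis genes apart, as 65.9% of replication genes held it. TTTGAA stood in 19.5% of replication genes and both motifs in 12.2%. Over all 32851 windows in the table, 17.9% held TTTGAA, 37.4% CCAAT, 6.95% both and 1.56% an E2F motif. Among the 341 genes of any kind that fell, the shares were 18.8% for TTTGAA and 6.74% for E2F, and among the 309 that rose, 13.9% and 2.91%. These are letter matches, and binding of any factor was not measured.

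Other members of the 3 lists showed the range of the fall. Among mitosis genes the kinases Aurka and Plk1 fell by 1.82 ± 0.33 and 1.49 ± 0.27 on the log2 scale. The motor proteins Kifc1 and Kif20a fell by 1.98 ± 0.44 and 1.27 ± 0.36, on probe sets that may bind related sequences. A second probe set of Kif20a differed by −1.11 ± 0.33 and passed. Kifc1 differed by −3.17 in the second run, against −1.19 in the first and −1.17 in the third. Mki67, a common marker of dividing cells, had signals of 105 to 221 at day 4 and 54.5 to 181 at day 7 and did not pass (−0.52 ± 0.49, adjusted p = 0.567). Among replication genes, the histone chaperone Asf1b fell by 1.99 ± 0.36, Mcm10 by 1.63 ± 0.38, Mcm5 by 1.41 ± 0.27, Uhrf1, which maintains DNA methylation, by 1.37 ± 0.18 and the clamp loader Rfc5 by 1.24 ± 0.21. A second probe set of Rfc5 differed by −0.23 ± 0.30. Pcna, the sliding clamp, fell by 1.01 ± 0.26 (adjusted p = 0.0116), but array 22 of the third run (656) lay above array 19 (604). Among nucleotide genes Tk1, thymidine kinase, had signals of 1414, 1102, 1565, 1486 and 1539 at day 4 and 402, 352, 512, 257 and 432 at day 7 (−1.89 ± 0.24, adjusted p = 1.74e-05). Its weaker second probe set differed by 0.56 ± 0.62. Rrm2 of ribonucleotide reductase fell by 1.55 ± 0.28, Cad, which starts pyrimidine synthesis, by 0.94 ± 0.24 and Nme1 by 0.75 ± 0.17. Mcm10 lost its call with the higher floor (−0.37, adjusted p = 0.109) and Cad on brown arrays alone (0.051). Without 1 array the calls of Kif20a (array 8, 9 or 12, adjusted p up to 0.0782) and Pcna (array 8, 0.0518) ended.

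**Figure D4:**
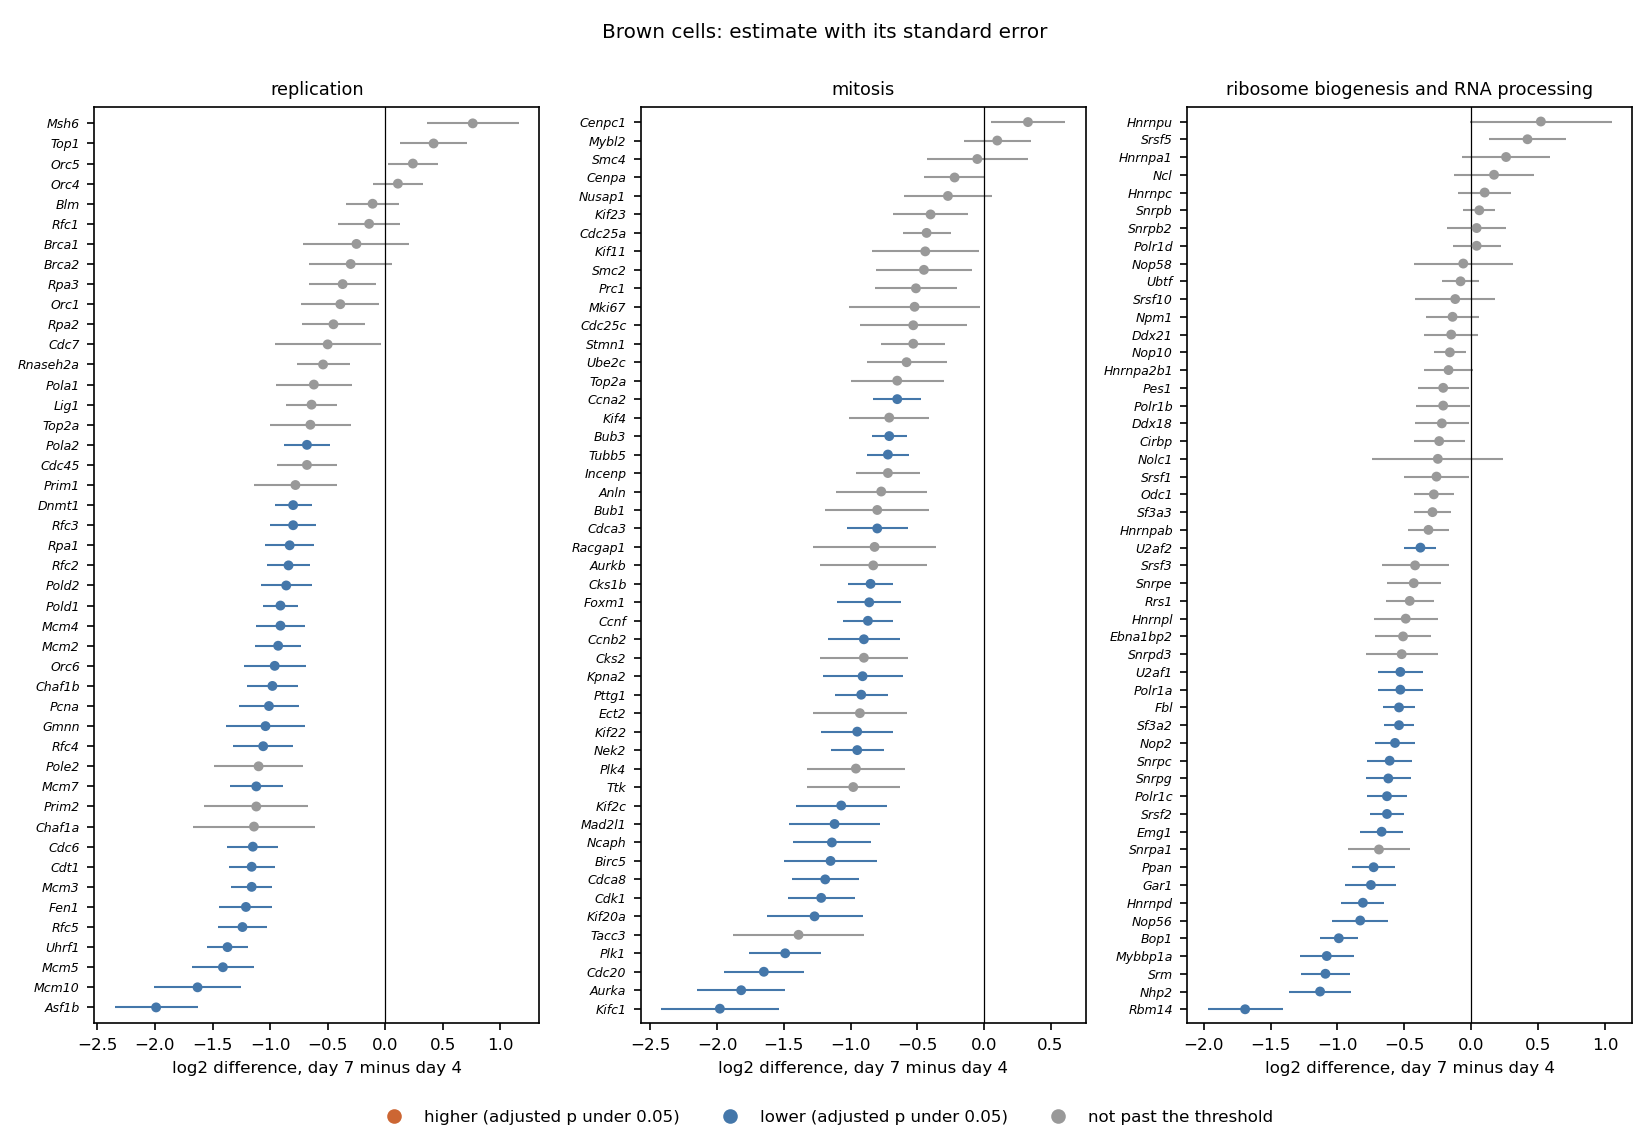
Log2 difference, day 7 minus day 4, for every tested gene of 3 lists, with bars for the standard error of the fit; blue points passed as lower and grey points did not pass. The lowest points are Asf1b (−1.99), Kifc1 (−1.98) and Rbm14 (−1.69), and no gene passed as higher.

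The regulators that stand above these genes were mixed. Of 33 tested cyclins, CDK inhibitors and growth-arrest genes, 7 rose and 5 fell. Ccnd3 fell by 0.56 ± 0.14, Cdk4 by 0.53 ± 0.16, Ccne1 by 0.47 ± 0.12, the CDK inhibitor Cdkn2d by 0.67 ± 0.19 and the growth-arrest gene Gas1 by 1.01 ± 0.19. Gas6, the ligand of Axl-family receptors, rose by 1.23 ± 0.22, Gadd45a by 1.05 ± 0.22, Ccng2, a cyclin of resting cells, by 1.03 ± 0.22 and Txnip by 0.91 ± 0.20, although a second probe set of Txnip differed by −0.23 ± 0.20. Ccnd1 (−0.05 ± 0.20), Ccnd2 (−0.16 ± 0.58), Cdkn1a (−0.50 ± 0.26), Cdkn1c (0.34 ± 0.29) and Myc (−0.27 ± 0.25) did not pass, though Cdkn1a did with the block (adjusted p = 0.0111). Of 36 histone and chromatin genes 10 fell and 1 rose, led by the linker histone H1f10 (−1.57 ± 0.39), the variants H2az1 (−1.05 ± 0.25) and H2ax (−1.02 ± 0.20) and the lamin Lmnb1 (−0.96 ± 0.26). H2az1 was higher on array 22 than on array 19. Other genes with steep falls and no overlap were Selenoh (−1.50 ± 0.28), the Max partner Mxd3 (−1.48 ± 0.40), Tcf19 (−1.43 ± 0.27), the kinetochore gene Pmf1 (−1.39 ± 0.34), Rom1 (−1.38 ± 0.27) and the homeobox gene Pitx1 (−1.37 ± 0.41). Rom1 lost its call with the higher floor (−0.10, adjusted p = 0.679). Without 1 array, calls ended for Cdk4 (6 arrays, adjusted p up to 0.0768), Pitx1 (5 arrays, 0.0831), Cdkn2d (3 arrays, 0.0836), Lmnb1 (2 arrays, 0.0706) and Mxd3 (2 arrays, 0.0672).

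Of 51 genes of ribosome biogenesis and RNA processing 20 fell and none rose (median −0.42), and of 25 cytosolic ribosomal protein genes 7 fell and none rose. Nhp2, of the small nucleolar particles, had signals of 1195, 1078, 1557, 1123 and 1897 at day 4 and 713, 552, 584, 568 and 661 at day 7 (−1.13 ± 0.23, adjusted p = 0.00162). Bop1, needed for the large subunit, fell by 0.99 ± 0.14, Mybbp1a by 1.08 ± 0.20 and spermidine synthase Srm by 1.09 ± 0.18. Rbm14, an RNA-binding coactivator, fell by 1.69 ± 0.28 on a probe set that may bind related sequences, while its other probe set differed by 0.43 ± 0.44. Rpl13a fell by 0.93 ± 0.15 and Rps19 by 0.72 ± 0.19, the latter's call ending without array 7 or 8 (adjusted p up to 0.0603). Of 34 proteasome genes 4 fell (11.8%, against 6.50% of all genes). Among them were Psmc3 (−0.66 ± 0.16) and Psme3 (−0.69 ± 0.19, ending without array 9 or 19 at up to 0.0599). Endoplasmic reticulum genes split, with 3 of 34 higher (8.82%) and 5 lower (14.7%), against 6.48% and 6.50% of all genes. The stress-induced Trib3 and Dnajb9 rose by 1.79 ± 0.48 and 0.99 ± 0.21, and the folding factors Manf and Creld2 fell by 0.70 ± 0.16 and 0.66 ± 0.13. Trib3 lost its call without array 8 (adjusted p = 0.0526).

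Among 61 cytoskeleton and adhesion genes, 11 fell and 4 rose. S100a4, a calcium-binding protein of motile fibroblasts, had signals of 3200, 3777, 4021, 4210 and 4597 at day 4 and 1195, 949, 1814, 1345 and 1414 at day 7 (−1.58 ± 0.26, adjusted p = 3.19e-04). Its relative S100a6 fell by 0.93 ± 0.14, the tubulins Tubb6 and Tubb3 by 1.2 ± 0.25 and 0.87 ± 0.20, and beta-actin Actb by 0.87 ± 0.21. The second probe set of Actb differed by −0.47 ± 0.18 and did not pass, and the call of the first ended on brown arrays alone (adjusted p = 0.0573). Annexin Anxa8 rose by 2.51 ± 0.50, the actin-severing Gsn by 1.0 ± 0.22 and Tagln, which also marks smooth muscle, by 0.84 ± 0.18.

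In the TGF-beta and BMP list 6 of 38 genes fell (15.8%) and 2 rose (5.26%). The BMP target genes Id2, Id1 and Id3 fell by 1.16 ± 0.31, 0.91 ± 0.17 and 0.76 ± 0.19, the inhibitory Smad6 by 1.06 ± 0.17 and the co-receptor Eng by 0.66 ± 0.15. Id2 and Id3 were higher on array 22 than on array 19. Inhbb, the activin beta-B subunit, was under the floor on all day 4 arrays and at least 2.65-fold higher at day 7 (6.53 to 49.1), where 1 array was under the floor too. The call of Inhbb ended with the higher floor (0.22, adjusted p = 0.6) and on brown arrays alone (0.0544). Of 31 Wnt genes 2 rose and 1 fell (6.45% and 3.23%, near or below the shares of all genes), among them Dkk3, a Dickkopf family member (1.27 ± 0.27), and the receptor Fzd2 (−0.81 ± 0.19). In the VEGF, FGF and PDGF list 4 of 29 rose: Vegfa (0.96 ± 0.28), Vegfc (0.84 ± 0.24), the endothelial receptor Tie1 (0.95 ± 0.28) and the hypoxia factor Epas1 (0.96 ± 0.26). Csf1, the macrophage growth factor, fell by 0.86 ± 0.23. Among 51 cytokine and interferon genes 8 rose and 2 fell. The chemokines Ccl8 and Ccl11 rose by 1.69 ± 0.52 and 1.12 ± 0.29 and the class I gene H2-D1 by 0.89 ± 0.16, while the interferon-induced Isg15 and Ifi35 fell by 1.28 ± 0.22 and 1.0 ± 0.22. Calls ended without 1 array for Tie1 (6 arrays, adjusted p up to 0.0823), Ccl8 (6 arrays, 0.0948), Vegfa (4 arrays, 0.0789), Vegfc (2 arrays, 0.0609), Epas1 (2 arrays, 0.0528), Csf1 (array 9, 0.0574) and Id2 (array 8, 0.0611).

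Of 43 antioxidant and glutathione genes 6 rose (14%) and 4 fell (9.3%), against 6.48% and 6.50% of all genes. Cdo1, cysteine dioxygenase, had signals of 312, 467, 118, 198 and 189 at day 4 and 1448, 1660, 777, 1249 and 1086 at day 7 (2.39 ± 0.35, adjusted p = 1.10e-04). The secreted enzymes Gpx3 and Sod3 rose by 1.40 ± 0.21 and 0.96 ± 0.20 and Gstz1 by 1.16 ± 0.23, whereas Nqo1 fell by 1.40 ± 0.38 (a second probe set differed by −0.82 ± 0.28 and did not pass), Gstp1 by 0.89 ± 0.19 and thioredoxin Txn1 by 0.66 ± 0.13. Of 28 retinoid, steroid and xenobiotic genes 4 rose and 1 fell, with the oxysterol hydroxylase Cyp7b1 at 1.46 ± 0.28, the monooxygenase Fmo1 at 1.32 ± 0.19 and the epoxide hydrolase Ephx1 at −0.99 ± 0.28. Rgs2, a regulator of G protein signalling, rose by 2.14 ± 0.38 with no overlap. Nqo1 (3 arrays, adjusted p up to 0.0635) and Ephx1 (array 8 or 9, up to 0.0664) lost their calls without 1 array.

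Markers of other cell types were measured at both days. No summed signal of such a list differed past an adjusted p of 0.05. With 5 arrays per day and 10 lists, no list could pass unless others had low p-values too, however far its days lay apart. This outcome therefore does not show that the sums were alike. The summed signal of 49 striated muscle genes was 3817 to 5195 at day 4 and 3049 to 3619 at day 7, with no overlap (exact permutation p = 0.00794, the smallest that 5 against 5 arrays can give, and 0.0529 adjusted over 10 marker lists). Myh6, Myl3, Myl7 and Pgam2 were at the floor on all brown arrays. Of 29 tested, 3 fell and 1 rose. The mean signal of Acta1 went from 582 to 201 and that of Actc1 from 755 to 461, beside mean sums over the list of 4523 and 3425. Acta1, skeletal muscle actin, had signals of 633, 440, 398, 738 and 702 at day 4 and 205, 115, 208, 195 and 283 at day 7 (−1.55 ± 0.32, adjusted p = 0.00217). Actc1, cardiac actin, fell by 0.70 ± 0.22 (1.55 ± 0.31 on a second probe set that also passed) and Mybph by 0.83 ± 0.27, while myoglobin Mb rose by 1.90 ± 0.46. Of 8 tested myogenic regulators 1 rose and 1 fell, with a median difference of 0.26, and their summed signal was 860 to 1113 at day 4 and 669 to 1252 at day 7 (exact permutation p = 0.738, 13 genes). Myog, myogenin, had 238, 94.4, 246, 142 and 353 at day 4 and 63.4, 30.6, 106, 54.4 and 62.8 at day 7 (−1.72 ± 0.35, adjusted p = 0.00186), with array 11 above array 6. Mef2a rose by 1.13 ± 0.28, and Myod1 did not pass (−0.55 ± 0.19, adjusted p = 0.0638) except without array 6 (0.0409). Actc1 lost its call without any of 8 arrays (adjusted p up to 0.149) and Mybph without any of 7 (up to 0.119).

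Of 14 tested smooth muscle and pericyte genes 5 rose and none fell. Myh11, smooth muscle myosin, had signals of 3.21, 2.59, 10.7, 15.9 and 13.9 at day 4 and 42.5, 63.4, 55.5, 69.6 and 51.1 at day 7 (2.34 ± 0.43, adjusted p = 6.97e-04). With the higher floor Myh11 differed by 0.94 and did not pass (adjusted p = 0.066). Abcc9, a potassium channel subunit of mural cells, rose by 1.86 ± 0.27, Mcam by 1.14 ± 0.19 and Mylk by 0.54 ± 0.13. Of 13 endothelial genes, Icam2 (1.19 ± 0.33), Tie1 and Sox18 (0.67 ± 0.16) rose and Eng fell. Of the 13, 12 had a difference above 0, and the median was 0.67. The summed signal gave no difference past the test (2135 to 3603 and 2346 to 3286, exact permutation p = 0.849, 18 genes). Eng alone had mean signals of 1647 at day 4 and 1014 at day 7, beside mean sums of 2760 and 2839. Of 13 macrophage genes 1 rose (7.69%, near the 6.48% of all genes) and none fell. It was lysozyme Lyz2, which rose by 2.21 ± 0.48, with 2 day 4 arrays under the floor. Lyz2 lost its call with the higher floor (1.02, adjusted p = 0.074). The immunoglobulin gene Ighm rose by 1.03 ± 0.28 as the only 1 of 6 tested lymphocyte genes. Alkaline phosphatase Alpl, from the cartilage and bone list, fell by 1.39 ± 0.34. Alpl did not pass with the higher floor (−0.80, adjusted p = 0.063) or on brown arrays alone (0.0668). Summed markers of erythrocytes, neural and Schwann cells, mesothelium, cartilage and lymphocytes had exact permutation p between 0.0476 and 0.841 and adjusted p of at least 0.119. Icam2 lost its call without array 5, 8 or 12 (adjusted p up to 0.0525), and Ighm without array 10 (0.0576).

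The change from day 4 to day 7 was set against the same change in white cells by the interaction term of the fit, which shares no arrays between the 2 changes. It passed for 18 of 8397 probe sets (0.214%), 14 with the larger value in brown cells and 4 with the larger value in white, and for 12 of 6281 genes (0.191%). Acta1 fell in brown cells as given above, and in white cells its signal ran from 16.5 (median 57.7) to 86.0 at day 4 and from 73.0 (median 104) to 147 at day 7, a rise of 1.10 ± 0.28. The changes differed by −2.64 ± 0.42 (adjusted p = 0.00213). Cyp2e1, a cytochrome P450, had signals of 93.2, 60.1, 65.0, 86.1 and 79.7 at day 4 and 72.5, 92.7, 71.6, 73.1 and 33.5 at day 7 in brown cells, which overlap throughout. In white cells it went from 53.2 (median 75.2) to 116 at day 4 to between 161 and 410 (median 317) at day 7, and the changes differed by −2.22 ± 0.34 (adjusted p = 0.00127). Fam167b lay under the floor on all brown day 4 arrays (3.32 to 7.17), on 7 of the 8 white day 4 arrays and on all 6 white day 7 arrays, and at 59.8, 74.8, 30.7, 57.3 and 79.5 on the brown day 7 arrays, at least 6.99-fold above brown day 4. Its changes differed by 2.81 ± 0.41 (adjusted p = 6.19e-04), and by 0.99 with the higher floor (0.0192). Fam167b cleared the filter on low signals only through the brown day 7 arrays, the group where it was high. Its adjusted p is therefore not free of that selection.

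For Ahsg, white cells were above the floor already at day 4 (median 50.9) and at a median of 77.7 at day 7, while the brown day 7 range of 40.3 to 72.6 reached into the white day 7 range of 65.2 to 98.4 (difference of changes 2.18 ± 0.28, adjusted p = 2.73e-04). With the higher floor the difference for Ahsg was 0.36 and did not pass (adjusted p = 0.747). Gpx3, plasma glutathione peroxidase, rose from 1818, 2962, 1067, 1926 and 2423 to 4895, 6528, 4114, 5636 and 4637 in brown cells and changed by −0.16 ± 0.18 in white (1.56 ± 0.28, adjusted p = 0.00941). Apod (2.22 ± 0.48), Rgs16, a G protein regulator (1.28 ± 0.28), Ctsh (1.24 ± 0.25), Kng1 (1.07 ± 0.22) and the G protein subunit Gng11 (1.06 ± 0.22) also had the more positive change in brown cells. Their adjusted p lay between 0.0386 and 0.0477. Each of these 5 calls, and those of Pdia6 and Amy1, ended without array 5, among others, with an adjusted p of 0.0998 or 0.105. Gng11 changed by 0.52 ± 0.17 in brown cells and by −0.54 ± 0.14 in white, and Rgs16 by 0.90 ± 0.21 and −0.38 ± 0.18. White cells had mean signals of 1336 for Ctsh and 576 for Kng1 already at day 4, above the brown day 7 means of 859 and 418. The remaining pair were Pdia6, a protein disulfide isomerase that fell by 1.33 ± 0.17 in white cells and differed by −0.14 ± 0.20 in brown (1.2 ± 0.26), and amylase Amy1, which rose by 3.03 ± 0.30 in white cells while its brown arrays stood at 0.460 to 7.31 at day 4 and 10.5 to 25.5 at day 7 (−2.10 ± 0.46). Amy1 cleared the filter on low signals through the white day 7 arrays, the group where it was high (50.7 to 131, against at most 25.5 elsewhere). Its adjusted p is likewise not free of that selection. The brown minus white difference did not pass for Cidea (2.51 ± 0.83, adjusted p = 0.286), Igf1 (2.26 ± 0.61, adjusted p = 0.151) or Myog (−1.77 ± 0.47, adjusted p = 0.135). Acta1 and Cyp2e1 passed under all alternatives. Fam167b passed under all in which it was fitted, and the stricter filter left it out. With the Gapdh 3′ to 5′ ratio as a covariate 5 probe sets passed, and without 1 brown array between 7 and 23, the lower counts coming without array 5, 7, 8, 9, 10, 11, 12 or 19. In that covariate fit the differences were 0.94 for Ctsh, 0.86 for Kng1, 0.64 for Pdia6 and 1.06 for Gpx3, none of which passed (adjusted p 0.657 to 1).

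**Figure D5:**
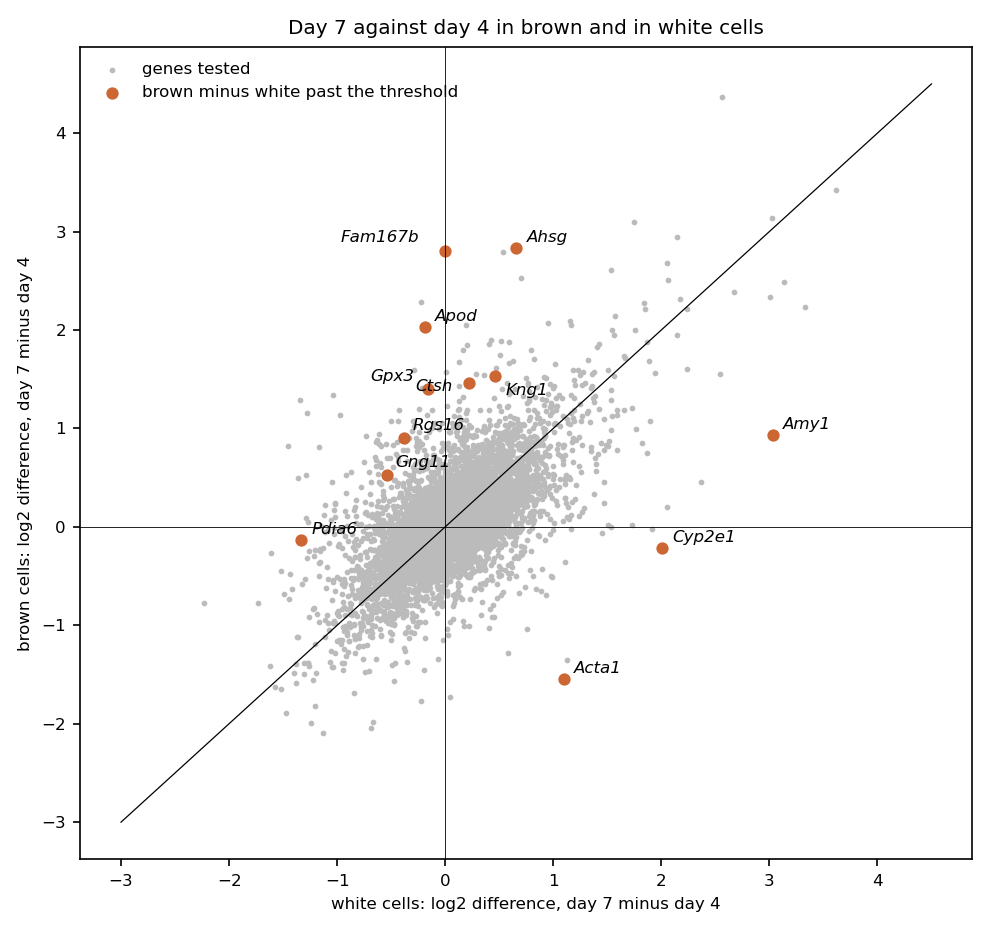
Log2 difference, day 7 minus day 4, in brown cells (vertical) against white cells (horizontal) for the 6281 genes tested; the diagonal marks equal change, and the 12 orange points are genes whose brown and white changes differed. Fam167b, Ahsg and Apod lie above the diagonal, and Acta1, Cyp2e1 and Amy1 below it.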

How the data were processed

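Signal intensity per probe set, on a linear scale, was deposited by the authors. The submitters' processing notes name MAS5, in a version not given in the sources used here. Per the labels, total RNA was extracted with Trizol and amplified once into biotinylated cRNA. The 2% trimmed mean of every deposited array was about 150. Arrays were rescaled to exactly 150, values below a floor of 8.21 (the 20th percentile) were raised to it, and the result was log2-transformed. A probe set was tested if its signal exceeded its array's 40th percentile on 5 or more of 24 arrays, and 66 control probe sets were left out. Of 12488 probe sets the platform annotation, which can be old, gives 1 symbol for 10855, several for 396 and none for 1237, and 10839 of the first matched the reference table by gene identifier. The 4 group means were fitted with limma 3.58.1 (lmFit, eBayes with trend, two-sided) in R 4.3.3, with 20 residual degrees of freedom and Benjamini-Hochberg adjustment within a contrast. Nothing says that arrays came from separate animals or cultures, so the p-values reflect array-to-array spread alone, possibly technical. The number of arrays limits the precision. The fit was tested on simulated data.

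Each gene is represented by the brightest of its tested probe sets. Fold values and "at least" values (for genes under the floor on all arrays of a group) are on the floored scale. Named genes are the 20 largest rises and 20 largest falls without overlap, up to 5 per list and direction, a fixed panel, and up to 10 per direction of the brown minus white difference. In the panel, Ucp2, Adrb3, Cfd and Plin1 have no probe set of 1 symbol, and Insr, Irs1, Cdkn1b, Myf5, Gapdh and the listed Cox8a were not tested. Members, lists and panel were chosen with earlier results of these data known. The alternatives were another floor or none, another filter or none, quantile normalization, no rescaling, array weights, no trend, the number runs as a block, brown arrays only, a Gapdh ratio covariate and leaving out each array.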

Additional observations from a re-analysis of the deposited data

Results flagged for a closer look

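Of 450 groups of 5 arrays checked, 17 (3.78%) had 1 array far from the other 4 by Dixon's criterion, which chance gives in about 1 of 20 groups. Array 19 was the odd one at day 4 for Ccn3 (signal 13.5 against 40.8 to 52.0), Pdia6 (453 against 894 to 1057), Mccc1 (47.6 against 71.9 to 82.0), Nme1 (150 against 197 to 219) and Mmp11 (185 against 82.6 to 99.5). Array 22 was the odd one at day 7 for Cyp2e1 (33.5), Klf9 (135), Gstp1 (2534) and Col1a1 (2749). Array 6 was lowest at day 4 for Tk1 (1102), Aurka (143) and Gas1 (511). At day 7, array 8 was lowest for Pmf1 (31.4) and highest for Ddit3 (286) and Elovl1 (121), and array 11 was lowest for Ephx2 (257). Array 9 was lowest at day 4 for Ccl8 (57.9).

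The change from day 4 to day 7 differed between brown and white cells, by the interaction term, for 12 genes. On the log2 scale, brown minus white, it was −2.64 for Acta1, −2.22 for Cyp2e1, −2.10 for Amy1, 1.06 for Gng11, 1.07 for Kng1, 1.2 for Pdia6, 1.24 for Ctsh, 1.28 for Rgs16, 1.56 for Gpx3, 2.18 for Ahsg, 2.22 for Apod and 2.81 for Fam167b.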

How the results depend on the processing

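The count of 1012 probe sets rose to 1665 with array weights and 1638 with the number runs as a block, and ran from 672 to 1170 when each brown array was left out. Under the other alternatives it stayed between 875 and 1067. The labels give no pairing of arrays and the brown groups share no replicate numbers. No paired fit was run, and the runs stand in as a block instead. Deviations from the group means correlated at −0.00321 to 0.238 (median 0.0887, 9 pairs of arrays) within a run and −0.271 to 0.158 (median −0.0842, 16 pairs) between runs. Within runs, arrays 5 and 7, 6 and 8, 9 and 11, 10 and 12, and 19 and 22 correlated at 0.238, 0.13, 0.155, 0.0887 and 0.169. The other pairs within a run lay between −0.00321 and 0.0742. Whether this order marks a pairing was not tested. Array weights were lowest for arrays 19 (0.453) and 22 (0.486). The count of 18 probe sets for brown minus white became 35 with a floor at the 40th percentile, 10 with no floor, 10 with no filter, 9 with a stricter filter, 45 with array weights, 11 without the trend, 61 with the block, 5 with the Gapdh covariate, and 7 to 23 without 1 array. Of its 12 genes, Ahsg and Gpx3 lost the call once, and Pdia6 (17), Rgs16 (15), Apod (14), Amy1 (13), Kng1 (11), Ctsh (10) and Gng11 (10) under more alternatives. The Gapdh ratio difference of 0.00519 ran from −0.0236 to 0.0340 without 1 array (−0.00149 without 7, −0.00805 without 8), and that of beta-actin, 0.149, from 0.0849 to 0.192.

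Of the 225 genes considered for naming, 201 passed, none of which reversed. Of these, 135 passed under every alternative, 54 lost the call without 1 array and 51 under another alternative (20 on brown arrays alone, 10 with the higher floor, 16 with no filter, 3 with no floor, 3 without the trend, 4 after quantile normalization, 26 without arrays 19 and 22). Of the 24 that did not pass, 7 did so under some alternative. Among genes that did not pass, the difference changed sign for Ppara (0.04 with the higher floor, −0.56 to 0.19 without 1 array), Cebpb (−0.04 to 0.12 without 1 array), Lep (0.00 with array weights), Ccnd1 (0.01 without 19 and 22, an alternative chosen after seeing the data), Ccnd2 (−0.46 to 0.11 without 1 array, with 0.04 and 0.06 without 7 and 8), Lhx8 (−0.24 to 0.03 without 1 array), Cyp2e1 (−0.34 to 0.02 without 1 array, 0.04 without 19 and 22) and Amy1 (0.00 with the higher floor). Signals near the floor limit what can be said of Ucp1, Amy1 and Ccnd2.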
